A study of Homo sapiens with 18 samples.

Results

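Cells treated with the DNA-breaking drug NCS and then with the MDM2 inhibitor MI-1061 were set against cells that received DMSO alone. The authors' table names 3074 genes, and all 3074 belong to the comparison, because the table keeps only genes whose mean after NCS and MI-1061 exceeded the DMSO mean by 1.75-fold or more. The listing therefore used this contrast itself, so sizes and ranks of the rises are described below without a test, and genes that did not reach the threshold are not analysed here. The cells were SJSA-1, a human osteosarcoma line in which the MDM2 gene is amplified. The DMSO group had DMSO for 72 h. The NCS with MI-1061 group had NCS (neocarzinostatin) at 1 µg/mL for 72 h, 48 h of it before the compound and then renewed, with MI-1061 at 1 µM in the last 24 h. Groups with a single agent (NCS with DMSO, or DMSO with MI-1061) and with NCS followed by 1 µM MD-224 gave the further comparisons. The remaining group, DMSO with 1 µM MD-224 in the last 24 h, entered only the joint fit and the counts over all 6 groups. Each group had 3 libraries of poly(A) RNA, and the labels do not say whether these came from separate cultures, so p-values measure only the spread between libraries, which may be technical.

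MDM2 is a ubiquitin ligase that binds the transcription factor p53, blocks it and sends it to the proteasome, and p53 in turn activates the MDM2 gene, which closes a feedback loop. MI-1061 is a small molecule that occupies the p53 pocket of MDM2, and MD-224 is a compound that causes MDM2 to be degraded. NCS is an enediyne antibiotic that cuts both DNA strands and so feeds p53 from the side of DNA damage. Osteosarcoma lines with extra MDM2 copies are much used to study release of p53 from its inhibitor.

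The p53 protein binds DNA as 2 copies of a half-site whose core reads CNNG with A or T in the centre. Windows of 250 bases before the RefSeq start sites (GRCh38.p14, gene strand, all annotated starts of a gene) were searched in 2 ways. The first search was for 2 such cores in register, CNNGNNNNNNCNNG, a pattern that reads the same way on both strands. The second was for the 20-base p53 response element (2 half-sites without a spacer) with at most 2 mismatches. It fixed the C and G of both cores and counted other centre bases than A or T as mismatches. An element thus need not hold the double core, and those of PDE4C, MDM2 and GRHL3 below do not. Of 310 genes at least 8-fold higher with a window, 23 (7.42%) held the double core and 6 (1.94%) held the element, against 5.36% and 0.836% of all 2274 listed genes with a window. Among all 27305 RefSeq genes with a window the shares were 4.91% and 0.308%. The matches outside annotated exons in the genes at least 8-fold higher are printed to show their letters beside the p53 element. Most of the 310 genes held no such match. Capitals mark the 20 bases of the element, 5′ to 3′ on the gene's strand.
SIGLEC14: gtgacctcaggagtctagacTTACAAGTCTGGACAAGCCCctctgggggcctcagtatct
PDE4C: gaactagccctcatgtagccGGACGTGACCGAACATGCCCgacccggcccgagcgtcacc
MDM2: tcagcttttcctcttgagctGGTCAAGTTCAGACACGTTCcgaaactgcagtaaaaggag
GRHL3: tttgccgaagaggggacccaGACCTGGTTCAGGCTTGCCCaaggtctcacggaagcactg
PTCHD4: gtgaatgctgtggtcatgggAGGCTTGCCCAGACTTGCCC
The PTCHD4 element (chr6:48111198-48111237, minus strand) has 0 mismatches and ends at the base before the start. Those of SIGLEC14 (chr19:51646989-51647048, minus strand), PDE4C (chr19:18224631-18224690, minus strand), MDM2 (chr12:68808903-68808962, plus strand) and GRHL3 (chr1:24322903-24322962, plus strand) have 2 each. The MDM2 element lies 94 to 75 bases before a start inside the MDM2 gene, in no annotated exon. FAS, which encodes a death receptor, held a further match that overlaps an exon, and its sequence is not shown. A match is a description of these letters and was not tested for binding.

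The table gives normalized counts, that is, reads divided by a size factor of the library. Listed genes summed to 4594460 to 4940724 normalized counts in the DMSO libraries and 16915894 to 17252589 in those with NCS and MI-1061. These sums cover a selected list and are not depths. In DMSO the reads themselves could be recovered and came to 4490870 to 4834150 in listed genes. Over the log2 values, pairs of NCS with MI-1061 libraries correlated at Pearson's r of 0.9864 to 0.9921 and pairs of DMSO libraries at 0.9636 to 0.976, across genes, which are not independent replicates. Of 16 osteoblast-lineage markers 5 are in the table (BMP2, SPP1, COL1A2, SPARC and PHOSPHO1), with sums of 70711 to 88481 in DMSO and 169352 to 194817 with both agents. The values are on the authors' size factors. When the listed genes were rescaled by TMM, a method that assumes most genes do not change, the median log2 difference fell by 1.58 to 0.02, since the listing holds only higher genes. Levels below are therefore on the authors' scale, and gene groups are read against the median of all listed genes.

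The typical listed gene was 3.03-fold higher (log2 1.60) with NCS and MI-1061 than with DMSO, and a short tail of genes was higher by far more. Folds are from limma's log2(value + 1) estimates over 3073 genes. For genes with low values they can lie below the ratio of the group means, as for CGB7 (106 against 120). They can also lie above it, as for COL17A1 (339 against 281). The 25th, 75th, 90th and 99th percentiles were 2.2-fold, 5.17-fold, 10.9-fold and 63.1-fold. In bulk libraries a larger share of responding cells and more RNA per cell cannot be told apart. By size, 2586 genes were at least 2-fold higher, 1079 at least 4-fold, 437 at least 8-fold, 91 at least 32-fold and 10 at least 128-fold. In 3028 genes (98.5%) all 3 libraries with both agents lay above all 3 with DMSO, a share that the listing itself favours. The 46 others include KLF4 and LURAP1L. The larger rises belonged to genes with few reads in DMSO, where the median was 142 mean reads among genes at least 2-fold higher and 20.3 among those at least 32-fold higher. In 322 genes (10.5%) the DMSO mean was under 10 reads, and their median fold was 5.12 against 2.86 in the rest. The median standard error of a log2 difference was 0.26, and 0.44 among the 25 largest rises. DMSO libraries varied more than those with both agents, with a median coefficient of variation of 23.7% against 12%.

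**Figure D1:**
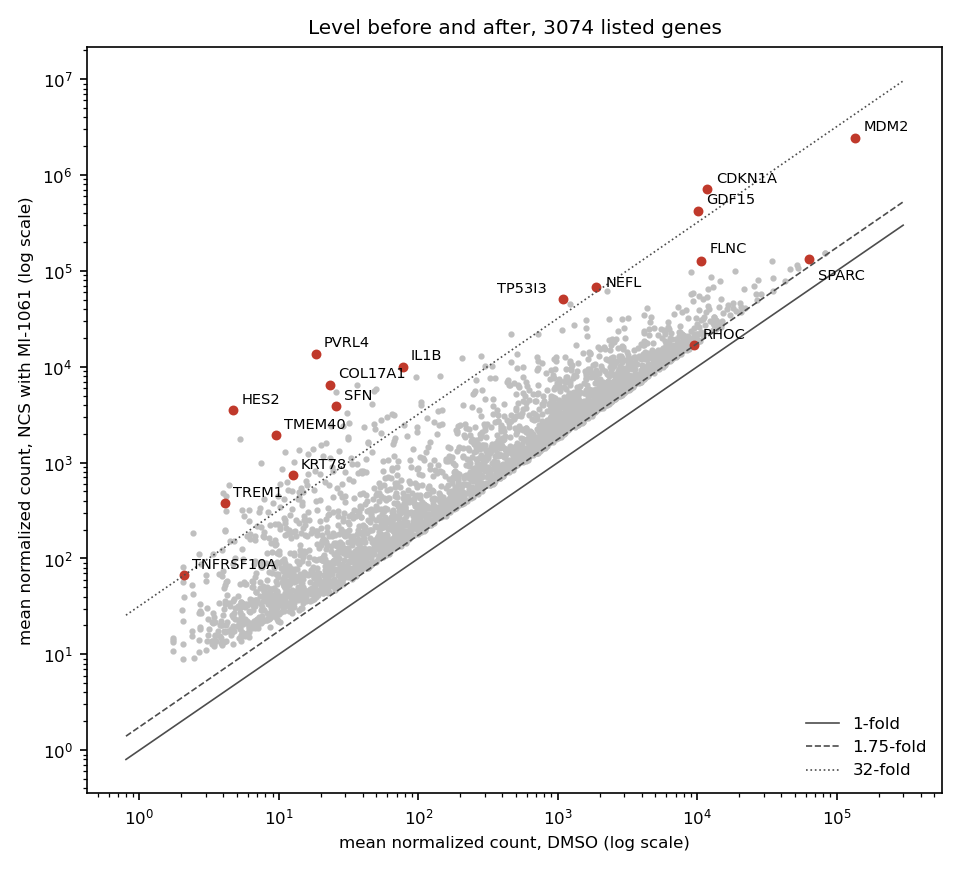
Each point is a listed gene, with its mean normalized count over 3 DMSO libraries on the horizontal log axis and over 3 NCS with MI-1061 libraries on the vertical log axis, and lines mark 1-fold, 1.75-fold and 32-fold. All points lie on or above the 1.75-fold line because of the listing, the highest folds sit at low DMSO counts, and MDM2 has the highest level in both groups.

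The largest rise among genes with a current symbol belonged to HES2, a basic helix-loop-helix repressor of the hairy/enhancer-of-split family (chromosome 1, 6415232 to 6419919, GRCh38, GENCODE). HES2 stood at 4.377, 7.688 and 2.046 normalized counts in the DMSO libraries, which are 4, 8 and 2 reads, and at 3046, 4173 and 3360 with NCS and MI-1061. The lowest library with both agents was far above the highest with DMSO, and the estimate was 670-fold (log2 9.39, SE 0.40). With a pseudocount of 5 the log2 value was 8.54, at these few DMSO reads. PVRL4, an older symbol of NECTIN4 that codes for a cell-adhesion protein, was higher still and was picked out after its values were seen. It moved from 35.02, 7.688 and 12.28 in DMSO to 13478, 14318 and 13342, an estimate of 853-fold (log2 9.74, SE 0.40).

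COL17A1, the transmembrane collagen of hemidesmosomes, had DMSO values of 51.43, 7.688 and 10.23 and values of 4392, 11000 and 4113 with both agents. Its estimate was 339-fold (log2 8.40, SE 0.61), and DMSO replicate 1 decided part of it, since the log2 difference was 9.21 without that library. TMEM40, which encodes a transmembrane protein, had tight groups, 8.754, 9.61 and 10.23 in DMSO against 1848, 2164 and 1838, or 185-fold (SE 0.44). RRAD, a Ras-related GTPase that restrains calcium channels and glucose uptake, stood at 37.21, 19.22 and 20.46 and at 5299, 6262 and 4826. None of these groups overlapped, and for RRAD the estimate was 213-fold (log2 7.73, SE 0.38).

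Signalling proteins and secreted ligands also stood among the 25 largest rises. IL1B, the interleukin-1 beta precursor, had 123.7, 73.04 and 34.78 normalized counts in DMSO and 10497, 10339 and 9227 with NCS and MI-1061, a 145-fold difference (log2 7.18, SE 0.44). AREG, an EGF-receptor ligand, had 70.04, 49.97 and 28.65 against 6142, 6873 and 4745, or 123-fold (SE 0.41). Both ligands separated fully between the groups, and IL1B had the highest mean of the 25 with both agents (10021). SFN (14-3-3 sigma), which keeps cells from entering mitosis, had 37.21, 15.38 and 24.55 in DMSO and 1708, 7986 and 1942 with both agents. NCS with MI-1061 replicate 2 was the high one, and the log2 estimate of 6.89 (118-fold, SE 0.85) became 6.18 without it. CRYAB, a small heat-shock chaperone, had 54.72, 42.29 and 47.06 against 3649, 7532 and 5618, or 110-fold (SE 0.26), the smallest standard error of the 25.

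The 25 also included MYH16, SIGLEC14, CSMD3, PDE4C, DACH2, CGB7, DRAXIN, CDC42BPG, TEX37, ABCA12, PHACTR3, UNC5B-AS1, KCNA7, PSG5, SH2D2A and TREM1. The lowest of the 25 was TREM1, an activating receptor of myeloid cells, at 73-fold, with 4.377, 3.844 and 4.092 in DMSO and 445.1, 419.1 and 274.5 with both agents. SIGLEC14, a sialic-acid-binding receptor, had 2, 30 and 2 reads in DMSO, and its log2 difference of 7.54 was 8.63 without DMSO replicate 2. CSMD3 ranged from 5.86 without DMSO replicate 2 to 7.95 without DMSO replicate 1, around an estimate of 7.12. Its replicate 2 was the lowest in every group, and without replicate 2 of all groups the value was 6.21. SIGLEC14, CGB7 and PSG5 have near-identical paralogs and UNC5B-AS1 is an antisense RNA, so the way reads were assigned makes their levels uncertain. A DMSO mean under 10 reads was found for 8 of the 25. In 23 of the 25 the mean with NCS and MI-1061 was the highest of the 6 groups, against 2097 (68.2%) of all tested genes. The 25 were chosen for high values in that group, which favours this.

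**Figure D2:**
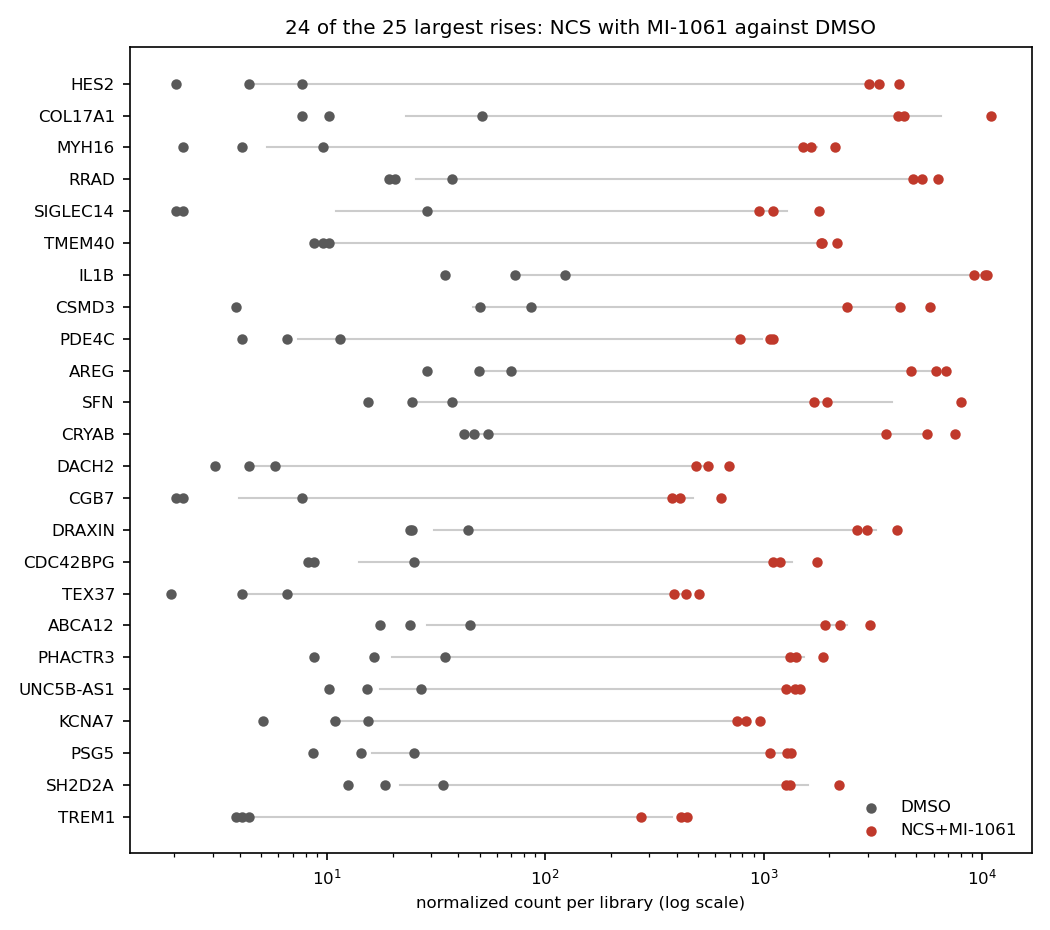
Normalized count per library on a log axis for 24 of the 25 largest rises named by the rule, with 3 grey points for DMSO, 3 red points for NCS with MI-1061 and a grey line joining the arithmetic means of each group. The DMSO points of every gene lie below its red points, from HES2 (670-fold) at the top to TREM1 (73-fold) at the bottom.

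The medians of the 5 lists of canonical p53 targets lay above the median listed gene. The feedback and stabilisation list has 3 of 7 genes in the table and a median of 6.32-fold, the cell-cycle arrest list 11 of 11 and 10.5-fold, the cell-death list 13 of 16 and 7.21-fold, the repair list 5 of 9 and 5.73-fold, and the list for metabolism, redox and membranes 25 of 27 and 10.3-fold, against 3.03-fold over all genes. At least 8-fold higher were 8 of the 11 arrest genes, 17 of the 25 metabolic genes, 5 of the 13 death genes, 1 of the 5 repair genes and 1 of the 3 feedback genes, against 14.2% of all tested genes. Since the members are those that passed the listing, the medians describe the listed members alone.

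MDM2 itself was the most abundant listed gene (chromosome 12, 68808172 to 68850686). Its normalized counts were 114681, 163950 and 126598 in DMSO and 2373749, 2485072 and 2520807 with NCS and MI-1061. The groups were far apart, at 18.4-fold (log2 4.20, SE 0.17), and this placed MDM2 only at rank 180 by fold. Its share of all listed normalized counts was 2.87% in DMSO and 14.4% with both agents. PPM1D, a phosphatase that dampens p53 and DNA-damage kinases, was 4.72-fold higher (SE 0.16), and TRIAP1, a small p53-induced survival protein, 6.32-fold (SE 0.14).

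CDKN1A, the p21 inhibitor of cyclin-dependent kinases (chromosome 6, 36676463 to 36687332), went from 13252, 12142 and 10129 to 748455, 651428 and 737907. The libraries of each group lay close together, and the difference was 60.4-fold (log2 5.92, SE 0.16), which is rank 38. BTG2, an antiproliferative adaptor of mRNA deadenylation, had 597.5, 797.7 and 764.2 in DMSO and 21521, 24568 and 19689 with both agents, or 30.5-fold (SE 0.21). The lowest arrest gene was PLK2, a stress-induced polo kinase, at 2.23-fold.

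Among cell-death targets the highest was TP53I3, a quinone oxidoreductase also called PIG3. It had 960.8, 1249 and 1084 in DMSO and 45912, 55706 and 49614 with both agents, 46-fold (SE 0.27). FDXR, the mitochondrial ferredoxin reductase, had 971.7, 1482 and 1211 against 42969, 46789 and 46434, 37.7-fold (SE 0.23). Neither gene had overlapping libraries. BBC3, the BH3-only protein PUMA, was 13.1-fold higher (SE 0.28). The death receptor TNFRSF10A had 2, 1 and 3 reads in DMSO, or 2.189, 0.961 and 3.069 normalized counts, and 98.78, 32.42 and 69.3 with both agents. Its 21-fold estimate (log2 4.39, SE 0.59) became 3.23 on the log2 scale with a pseudocount of 5. PMAIP1 (NOXA) and BAX, both mitochondrial death proteins, closed the list, whose lowest member was 2.47-fold higher.

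In the repair list RRM2B, the p53-inducible ribonucleotide reductase subunit, was 10.9-fold higher (SE 0.14) and very even between libraries, with 2730, 2811 and 3075 in DMSO and 31057, 31489 and 31240 with both agents. POLH, a translesion polymerase, was 7.48-fold higher (SE 0.21), DDB2, a UV-damage sensor, 5.73-fold (SE 0.14), and XPC, which recognises distorted DNA, 4.68-fold (SE 0.17). Among metabolic and membrane targets, ABCA12, a lipid transporter of keratinocytes, was 84.9-fold higher and ACER2, a Golgi ceramidase, 46.6-fold. FUCA1, the lysosomal fucosidase, was 14.3-fold higher (SE 0.23), and the lowest member of that list, RPS27L, was 2.94-fold higher.

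GDF15, a secreted stress cytokine of the TGF-beta family, had 4563, 22047 and 3940 in DMSO and 479833, 393669 and 404317 with both agents. DMSO replicate 2 stood well above the other DMSO libraries, and the log2 estimate of 5.85 (57.7-fold, SE 0.44) was 6.64 without it. The same library was also the highest of its group for SESN2, ATF3, CHAC1, EGR2 and C3. For C3 this was not particular to DMSO, since replicate 2 was the highest in every group, with 4669 against 1939 and 2238 with both agents.

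Ranking by counts added in place of fold named other genes. The mean sum of listed counts went from 4726996 to 17062336, 3.61-fold, and MDM2 made up 18.8% of the addition, CDKN1A 5.68% and GDF15 3.37%. The 15 genes with the largest additions held 35.3% of it, and 0 of them were among the 25 largest folds. After those 3 came, among others, FLNC, CTSD, LRP1, YBX3, CTSB, SPARC, FTH1, NEFL, COL7A1, PSAP and SULF2. FLNC, the actin cross-linker filamin C, had 19353, 5764 and 7007 against 141134, 112913 and 126774, 13.7-fold (SE 0.36). CTSD, the lysosomal protease cathepsin D, had 35333, 33282 and 33842 against 127020, 124238 and 132619, 3.75-fold (SE 0.09). Both separated fully, with CTSD the more even of the pair and FLNC highest of its DMSO group in replicate 1. Ranked within the first 100 both by fold and by addition were 7 genes, CDKN1A, GDF15, CEACAM1, TP53I3, FDXR, NEFL and BTG2. NEFL, the neurofilament light chain, was 36.7-fold higher (SE 0.21).

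The cytokine list had 9 of 28 genes in the table, with a median of 8.31-fold. At least 8-fold higher were 5 of the 9, against 14.2% of all tested genes, and these figures describe the listed members alone. After IL1B came IL1A, the interleukin-1 alpha precursor, at 50.34, 97.07 and 48.08 in DMSO and 3287, 3268 and 2980 with both agents, 50.6-fold (SE 0.28). CXCL1, a neutrophil chemokine, was 9.26-fold higher (SE 0.46), from 25.17, 19.22 and 22.51 to 216.6, 180.3 and 249.2. The related CXCL3 started at 10.94, 29.79 and 2.046, and its log2 difference of 3.50 was 4.28 without DMSO replicate 2 and 2.61 without DMSO replicate 3. IL6, a cytokine of the acute phase, was 3.37-fold higher (SE 0.54), with 98.49, 267.2 and 37.85 in DMSO and 282.1, 361.4 and 386.5 with both agents, so its closest libraries were nearly level and the groups did not overlap. The cytokine median was higher still with NCS and MD-224 (11.7-fold) and lower with NCS alone (6.92-fold) or MI-1061 alone (3.9-fold). These medians share the same DMSO libraries. Gene by gene, the median log2 difference between NCS with MI-1061 and NCS with MD-224 was -0.03. Of the 9, 4 were called higher with MI-1061 and 0 lower (1 and 1 under TMM), beside 54.7% and 0.748% of all tested genes.

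Secreted proteases and growth factors (17 of 28 in the table) had a median of 5.44-fold. MMP3, the matrix protease stromelysin-1, was 28.6-fold higher, from 45.96, 12.49 and 10.23 to 848.6, 392.2 and 495.8, and its log2 difference of 4.84 was 5.48 without DMSO replicate 1. SERPINB2, a plasminogen activator inhibitor, was 16.4-fold higher, and its log2 difference of 4.03 was 5.09 with DMSO replicate 1 left out and 3.43 with DMSO replicate 3 left out. The NF-kB list (9 of 17) had a median of 3.25-fold, near that of all genes, with BIRC3, an inhibitor of apoptosis, at 12.3-fold and TRAF1, a TNF-receptor adaptor, at 10.3-fold. Interferon-stimulated genes (7 of 36) had a median of 2.55-fold, below that of all genes. RSAD2 (viperin), the highest of them, had 2.189, 30.75 and 4.092 in DMSO and 48.8, 146.3 and 37.32 with both agents, and its log2 difference ranged from 2.36 without DMSO replicate 1 to 4.02 without DMSO replicate 2. STAT2, a signal transducer of type I interferon, was 3.71-fold higher (SE 0.11). TMEM173 (STING), the adaptor of cytosolic DNA sensing, was 4.28-fold higher (SE 0.12), from 2105, 1886 and 1962 to 7901, 10214 and 7594.

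Markers of blood cells were checked beside these groups. Of 19 haematopoietic markers 4 are in the table, ITGAM, LAPTM5, CD68 and ITGAX, and PTPRC, the pan-leukocyte marker, is not among the listed genes. The 4 summed to 565.8 to 1252 normalized counts in DMSO and 5598 to 5754 with both agents. ITGAM was 24-fold higher, from 17.51, 35.56 and 6.138 to 349.9, 477.6 and 397.2, and its log2 difference of 4.59 was 3.96 without DMSO replicate 3. The part of these genes in the immune-gene values was not tested.

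Replication-dependent histone genes, whose transcripts usually end in a stem-loop in place of a poly(A) tail, had 22 of 63 members in the table and a median of 4.76-fold. HIST1H2BJ was 25.2-fold higher (SE 0.24), from 95.2, 166.3 and 155.5 to 3478, 3541 and 3251, and HIST1H2BG 20.8-fold (SE 0.28). The list fixed for DNA replication and mitosis had 0 of 34 members in the table. Stratified-epithelium genes (16 of 45) had a median of 5.1-fold. Besides COL17A1 and SFN they included KRT78, a keratin at 21.89, 9.61 and 6.138 in DMSO and 843.8, 737 and 634.4 with both agents (61.1-fold, SE 0.40), and KRT4, an oesophageal keratin at 18.6, 29.79 and 24.55 against 937.8, 774.2 and 715.7 (32.3-fold, SE 0.28). GRHL3, a transcription factor of the epidermal barrier, followed at 16.6-fold.

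The integrated stress response list (6 of 15) had a median of 5.16-fold, led by NUPR1, a stress-induced chromatin protein, at 14.4-fold (SE 0.31). Striated-muscle genes (8 of 38) had a median of 3.43-fold. Osteoblast markers stood at 3.01-fold, level with all genes, with BMP2, a bone morphogenetic protein, at 10.2-fold and COL1A2 at 3.01-fold. Oxidative-stress genes of the NRF2 type (7 of 15) had a median of 2.85-fold. Immediate early genes (17 of 29) stood at 2.48-fold, although EGR2, a zinc-finger factor, was 32.6-fold higher, with a log2 difference of 5.03 that was 5.93 without DMSO replicate 2 and 4.12 without DMSO replicate 3. Complement genes (7 of 21) stood at 2.54-fold, with C3, the central complement protein, at 29.7-fold (log2 4.89, and 5.56 without DMSO replicate 2). As replicate 2 was the highest for C3 in every group, the 5.56 comes from leaving it out on the DMSO side only. Lysosomal genes (21 of 40) stood at 2.5-fold, endothelial genes (2 of 8) at 2.32-fold, RNA polymerase III genes (4 of 30) at 2.06-fold, MHC class I genes (4 of 15) at 2.02-fold and cholesterol-synthesis genes (5 of 24) at 1.98-fold. Nucleic-acid-sensing genes (3 of 13) stood at 4.28-fold. The lists of osteoblast, NRF2-type, interferon-stimulated, complement, lysosomal, immediate early, endothelial, RNA polymerase III, MHC class I and cholesterol genes, 10 of the 24 lists with members, had a median below 0 on the log2 scale under TMM.

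**Figure D3:**
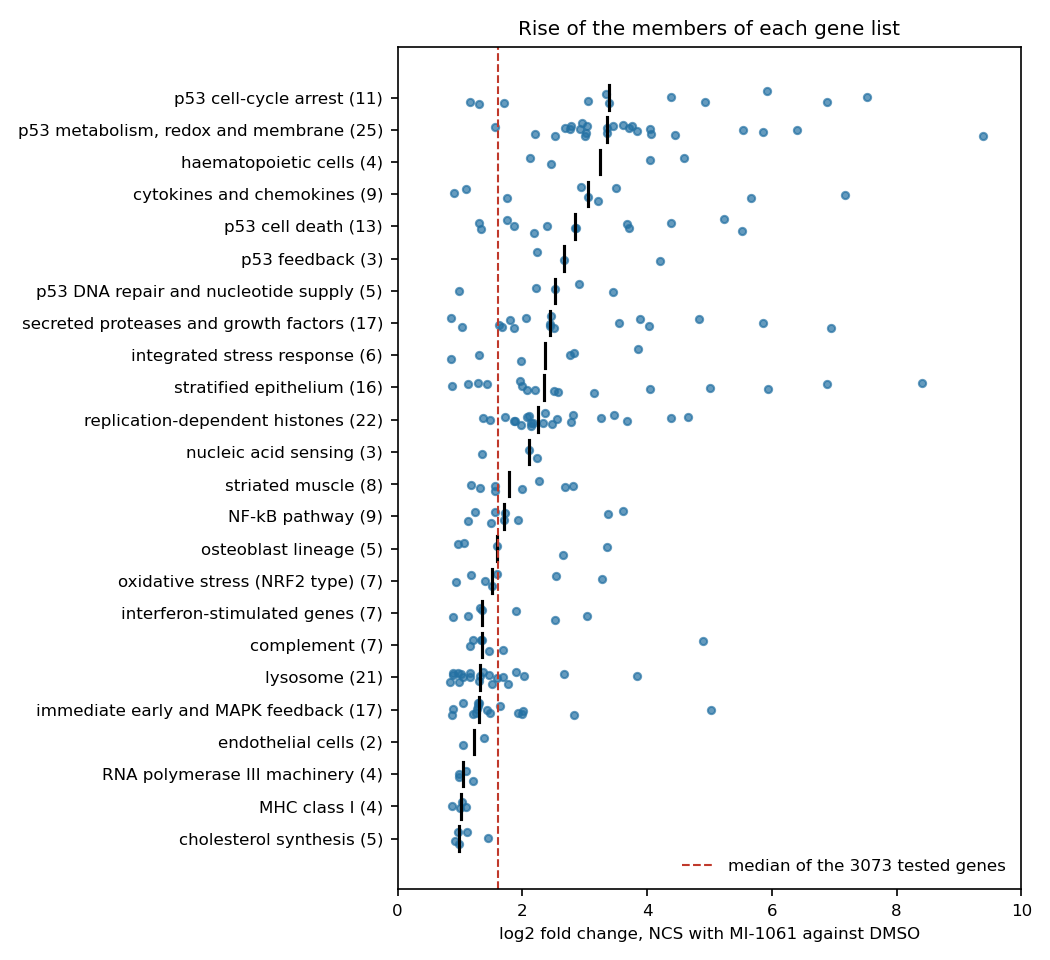
Log2 difference between NCS with MI-1061 and DMSO for each listed member of 24 gene lists, with the number of members in parentheses, a black bar at each list's median and a dashed line at the median of the 3073 tested genes (1.60). The p53 arrest and metabolic lists lie at the top with medians of 3.39 and 3.36, and the cholesterol list at the bottom with 0.98.

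How far both agents together went beyond each alone was tested across all 3073 genes with limma in 1 fit of 6 groups, at an adjusted p under 0.05. Every such comparison uses the NCS with MI-1061 libraries that also took part in the listing, which favours higher values there. Against MI-1061 alone 1717 genes (55.9%) were higher with NCS and MI-1061 and 309 (10.1%) lower, with a median log2 difference of 0.71. Against NCS alone 2168 (70.5%) were higher and 23 (0.748%) lower, with a median of 0.97. Under TMM the splits were 930 higher and 729 lower against MI-1061 alone, and 733 higher and 593 lower against NCS alone. Higher than with each of the single agents were 1365 genes (44.4%). Among the 437 genes at least 8-fold above DMSO the count was 281, and among the 25 largest rises it was 22, all but CSMD3, PDE4C and CDC42BPG. Beside this, the mean with both agents was the highest of the 6 group means in 2097 genes (68.2%), and in 366 of the 437 (83.8%). The 437 and the 25 were chosen for their height in the same NCS with MI-1061 libraries. Shares above those of all genes were thus favoured in advance. Against the shared DMSO libraries the median fold was 1.58 for NCS alone and 1.99 for MI-1061 alone.

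HES2 had 459.2, 1180 and 660.9 normalized counts with MI-1061 alone and 68.68, 106.6 and 101.2 with NCS alone, so its level with both agents lay above all of them. The difference was 4.92-fold against MI-1061 (adjusted p = 8.72e-05) and 38.2-fold against NCS (adjusted p = 5.32e-09). HES2, COL17A1, IL1A, GDF15 and TREM1 were named for their rise in the same NCS with MI-1061 libraries, which favours low p-values here. COL17A1 was low with each agent alone, at 75.89, 160.7 and 44.57 with MI-1061 and 80.46, 113.7 and 93.36 with NCS, and was 70.5-fold higher than with MI-1061 (adjusted p = 1.97e-07). IL1A was near its DMSO level with MI-1061 alone, at 105.5, 71.95 and 55.33, and with both agents it was 41.8-fold above that (adjusted p = 2.27e-10). For CDKN1A the single agents gave 365099, 349866 and 349056 (MI-1061) and 69416, 58896 and 65384 (NCS), and both agents together were 2.01-fold above MI-1061 (adjusted p = 2.35e-05). MDM2 had 1189842, 1828066 and 1698768 with MI-1061 and 177192, 180870 and 188863 with NCS. It was 1.59-fold above MI-1061 (adjusted p = 0.00196), a call that TMM ended (log2 0.05, adjusted p = 0.783), and 13.5-fold above NCS (adjusted p = 3.83e-11). GDF15 was 1.44-fold above MI-1061 (adjusted p = 0.303), with 255976, 319735 and 314112 in the MI-1061 libraries. TREM1 stood higher with NCS alone, at 259, 141.3 and 148.5, than with MI-1061 alone, at 25.72, 9.594 and 18.44, and both agents were 2.11-fold above NCS (adjusted p = 0.0166), a call that ended under TMM (adjusted p = 0.873) and without any one of 4 libraries (adjusted p from 0.0543 to 0.0673).

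For some of these 22 genes the call against MI-1061 rested on single libraries or on the scaling. SIGLEC14 (4.31-fold, adjusted p = 0.0439) lost it without any one of 5 libraries, with adjusted p from 0.0596 to 0.15, and under TMM (adjusted p = 0.172). ABCA12 (log2 1.07) lost it without MI-1061 replicate 1 (adjusted p = 0.16), without NCS with MI-1061 replicate 2 (adjusted p = 0.0947) and under TMM (adjusted p = 0.327). TEX37 lost it without NCS with MI-1061 replicate 1 (adjusted p = 0.0598), without MI-1061 replicate 3 (adjusted p = 0.0536) and under TMM (adjusted p = 0.162). CGB7 lost it under TMM (adjusted p = 0.0582), and KCNA7 and MYH16 lost it without the first replicate of every group (adjusted p = 0.057 and 0.0501).

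Within the p53 lists, 10 of 11 arrest genes were higher and 1 lower than with MI-1061 alone, and under TMM 3 were higher and 1 lower. Over all tested genes the shares were 55.9% higher and 10.1% lower, and under TMM 930 and 729 of 3073 genes. Of 25 metabolic genes 20 were higher and 1 lower, and under TMM 8 and 4. The balance turned under TMM for the death genes, from 6 higher and 1 lower of 13 to 2 and 6, for the repair genes, from 2 and 0 of 5 to 1 and 2, and for the feedback genes, from 1 and 0 of 3 to 0 and 2. On the authors' scale the shares of higher genes in these last lists lay below that of all genes. TNFRSF10A was lower with both agents than with MI-1061 alone, where it had 466.9, 301 and 407.3, by 2.65 on the log2 scale (adjusted p = 0.000845). All 11 arrest, 13 death, 5 repair and 25 metabolic genes, and all 3 feedback genes, were higher than with NCS alone on the authors' scale, where 70.5% of all tested genes were, and 10, 10, 5, 24 and 3 were under TMM. In the cytokine list 5 of 9 were higher and 1 lower than with MI-1061 alone (5 and 2 under TMM), near the shares over all genes on the authors' scale. Against NCS alone 4 cytokines were higher and 0 lower, which TMM turned to 2 and 4.

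The interaction measured whether both agents together differed from the sum of their single log2 effects. TMM moved its median by -0.01. It was positive in 721 genes (23.5%) and negative in 639 (20.8%), with a median of 0.06. The combined level and the DMSO level are both added terms of the interaction, and both were used in the listing. Listing for a high combined level favours positive values, and listing for a low DMSO level favours negative ones. The values go both ways, so the median says nothing of a typical gene. Without the third replicate of every group the counts were 365 and 284. Among the 437 genes at least 8-fold above DMSO, a set chosen by the same combined and DMSO levels, 98 were positive and 87 negative. Of the 25 largest rises, COL17A1, TMEM40, AREG, SFN, CRYAB, DRAXIN, PHACTR3 and SH2D2A were positive. HES2, RRAD, PDE4C, CDC42BPG and ABCA12 were negative, which means less than the product of the single folds. Of these, the calls of SFN (adjusted p = 0.0623 without replicate 1), SH2D2A (0.06 without replicate 3), PHACTR3 (0.202 without replicate 2), HES2 (0.141 without replicate 3), RRAD (0.0788 without replicate 3) and ABCA12 (0.131 without replicate 2) were lost with fewer libraries. With all libraries kept, a pseudocount of 5 moved the interaction of HES2 from -1.83 to -1.05 and ended its call (adjusted p = 0.0987). For PHACTR3 the call also ended without DMSO replicate 2 (adjusted p = 0.0565), NCS replicate 2 (0.0596) or NCS with MI-1061 replicate 2 (0.0505). For ABCA12 it ended without any one of 8 libraries, with adjusted p from 0.0516 to 0.0861.

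Positive values included genes that stood lower with each single agent than in DMSO. DERA, an aldolase of deoxyribose phosphate breakdown, had 2375, 1860 and 2408 in DMSO, 1442, 1264 and 1336 with NCS, 1210, 904.2 and 708.6 with MI-1061 and 10936, 13090 and 11899 with both. Each agent alone thus lay below DMSO in all 3 libraries, and both together lay above it, with an interaction of 4.41 (SE 0.25, adjusted p = 2.05e-09). NEMP2, a nuclear-envelope membrane protein, had 554.8, 626.6 and 658.9 in DMSO, 276.7, 252.7 and 220.1 with NCS, 230.2, 207.5 and 206 with MI-1061 and 1999, 1813 and 1631 with both. The interaction was 4.37 (SE 0.24, adjusted p = 2.05e-09). KCTD12, an auxiliary subunit of GABA-B receptors, was 0.522 times DMSO with MI-1061, 1.3 times with NCS and 9.11-fold above it with both (interaction 3.75, SE 0.35, adjusted p = 9.5e-07).

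SFN was the largest positive value at 4.87 (SE 1.20, adjusted p = 0.00365), from 59.17, 311.8 and 64.55 with MI-1061 and 15.7, 30.01 and 25.46 with NCS. Its interaction was 4.16 without NCS with MI-1061 replicate 2 and 5.64 without MI-1061 replicate 2. TMEM40 stood at 66.88, 52.77 and 33.81 with MI-1061 and 17.66, 21.32 and 23.04 with NCS, against 1848, 2164 and 1838 with both, an interaction of 4.24 (SE 0.63, adjusted p = 5.8e-05). DRAXIN, a secreted axon-guidance protein, was 7.83-fold above DMSO with MI-1061, 0.865 times DMSO with NCS and 104-fold above it with both (interaction 3.95, SE 0.71, adjusted p = 0.000325). IL1A (2.68, adjusted p = 5.78e-05), TP53I3 (2.03, adjusted p = 0.000404) and FLNC (2.43, adjusted p = 0.00103) were positive as well.

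The negative end held genes that stood higher with MI-1061 alone than with both agents, and the difference passed the test for each of the 6 lowest (adjusted p of at most 0.00686). KRT78 had 2365, 6478 and 5696 with MI-1061, 76.53, 66.33 and 76.99 with NCS and between 634.4 and 843.8 with both. Its interaction was -5.22 (SE 0.57, adjusted p = 4.16e-06), and every library with both agents lay below every one with MI-1061. KRT4 had 3915, 7033 and 6392 with MI-1061, again above all libraries with both agents, and an interaction of -4.94 (SE 0.40, adjusted p = 3.01e-07). TTN, the giant sarcomere protein titin, had 573.7, 1011 and 1104 with MI-1061, 170.7, 97.91 and 133.4 with NCS and 151.1, 91.73 and 162.6 with both, so both agents were level with NCS (1-fold, adjusted p = 0.99). Its interaction was -4.96 (SE 0.53, adjusted p = 3.11e-06). LGR6, a receptor of R-spondins, had an interaction of -4.85 (SE 0.77, adjusted p = 0.000112), which was -5.55 without DMSO replicate 2. DNAH12, an axonemal dynein heavy chain, had -4.46 (SE 0.61, adjusted p = 2.95e-05) and CUBN, the vitamin B12 receptor cubilin, -4.38 (SE 0.48, adjusted p = 4.12e-06). CUBN was 14.4-fold above DMSO with MI-1061 and 2.01-fold with both. IL6 had an interaction of -3.73 (SE 0.76, adjusted p = 0.000895), with single-agent folds of 6.47 and 6.92 against 3.37 for both.

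**Figure D4:**
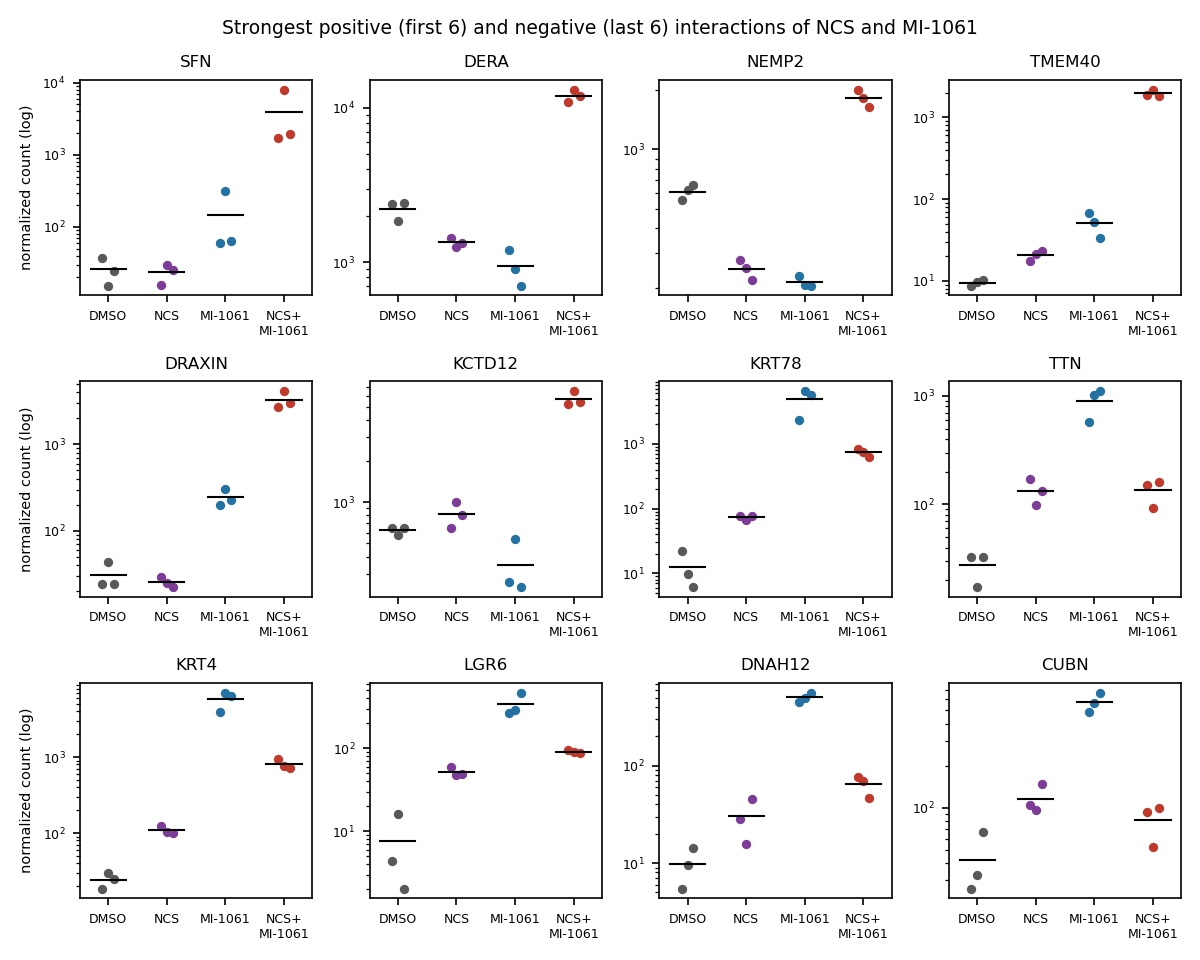
Normalized counts per library on log axes in DMSO, NCS, MI-1061 and NCS with MI-1061 for the 6 highest and 6 lowest interactions, with points for libraries and bars for arithmetic group means. In the first 6 panels the red points of both agents stand above all others, and in KRT78, TTN, KRT4, LGR6, DNAH12 and CUBN the MI-1061 points stand above those of both agents.

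By list, negative interactions were found in 16 of 22 histone genes with 1 positive, beside 20.8% negative and 23.5% positive over all genes. HIST2H2BE had -1.94 (adjusted p = 0.00151), and HIST1H2BJ, the exception, 1.10 (adjusted p = 0.0133). NRF2-type genes had 5 negative and 1 positive of 7, with AKR1B10, an aldo-keto reductase, at -1.84 (adjusted p = 0.00387) and AKR1C1 at 1.28 (adjusted p = 0.0189). Striated-muscle genes had 5 negative of 8 and 0 positive. In the stratified-epithelium list 5 of 16 were positive and 3 negative. The p53 arrest list had 3 positive and 3 negative of 11, with CDKN1A at -1.45 (adjusted p = 6.98e-05), the death list 3 and 4 of 13 and the metabolic list 4 and 7 of 25. MDM2 had 0.22 (SE 0.24, adjusted p = 0.476). Of the lists named here, TMM changed the death list alone, to 3 and 5.

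MI-1061 and MD-224 were compared after NCS at the same dose (1 µM) and time (24 h), as 1 pair of compounds. With MI-1061 1680 genes (54.7%) were higher and 23 (0.748%) lower, with a median log2 difference of 0.67, and under TMM 549 were higher and 357 lower. Since genes were listed for being high with NCS and MI-1061, a surplus of higher genes is built in. Without the third replicate of every group the counts were 1074 higher and 6 lower. The median fold over the shared DMSO libraries was 1.97 for NCS with MD-224. MDM2 had 961730, 838975 and 697739 with NCS and MD-224, below all libraries with MI-1061, a 2.98-fold difference (adjusted p = 9.5e-07). CDKN1A had 412513, 251904 and 271554 and differed 2.34-fold (adjusted p = 5.29e-06). Of the 25 largest rises, which were chosen by the same NCS with MI-1061 libraries, 23 were higher than with NCS and MD-224. The exceptions were CSMD3 and TREM1, and for TREM1 the difference was 0.55 on the log2 scale (SE 0.37, adjusted p = 0.223). Of the 23, SIGLEC14 lost the call under TMM (adjusted p = 0.176) and without NCS with MI-1061 replicate 1 or 2 or NCS with MD-224 replicate 3 (adjusted p from 0.0595 to 0.147), CDC42BPG under TMM (adjusted p = 0.0667) and TEX37 without the third replicate of every group (adjusted p = 0.0543).

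The largest surplus belonged to PHACTR3, a regulator of protein phosphatase 1 and actin, with 1326, 1877 and 1403 against 70.66, 45.24 and 20.25 with NCS and MD-224. That is 36.8-fold (log2 5.20, SE 0.53, adjusted p = 6.86e-07). DRAXIN followed at 30.5-fold, with 166.6, 169.1 and 39.49 in the MD-224 libraries, and its log2 difference of 4.93 was 4.25 without NCS with MD-224 replicate 3. LSP1, an actin-binding protein of leukocytes, was 18.7-fold higher (adjusted p = 1.78e-06), and its log2 difference of 4.22 was 3.57 without NCS with MD-224 replicate 3. ZNF812 was 17-fold and CCDC13 16.2-fold higher, with no overlap between the compounds in either. On the lower side MYPN, a sarcomere protein that binds nebulin, had 339.2, 189 and 397.2 with MI-1061 and 793, 670.4 and 1395 with MD-224, a log2 difference of -1.62 (SE 0.38, adjusted p = 0.00168). PAPPA, a protease that cleaves IGF-binding proteins, had 2566, 1930 and 2399 against 5530, 4819 and 5015, or -1.16 (SE 0.15, adjusted p = 6.5e-06). Both genes separated fully between the compounds. RSAD2 had -1.97 (adjusted p = 0.0466), a call that was lost without NCS with MD-224 replicate 2 or 3 or NCS with MI-1061 replicate 1 or 3 (adjusted p from 0.0602 to 0.224). C15orf48 had -1.50 (adjusted p = 0.00563), lost without replicate 3 (adjusted p = 0.155). IL1B was 2.27-fold higher with MI-1061 than with MD-224 (adjusted p = 0.0309), and that call ended without NCS with MD-224 replicate 2 (adjusted p = 0.165), without any one of the libraries with NCS and MI-1061 (adjusted p from 0.0533 to 0.0734) and under TMM (adjusted p = 0.397).

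At the other end of the list the smallest estimates with a mean of at least 50 were those of DACT3, ZNF791, AGAP3, INTU and RHOC, each 1.75-fold. RHOC, a small GTPase of cell motility, had 9942, 8750 and 9976 in DMSO and 15854, 18052 and 16320 with both agents, a narrow gap that still did not overlap. INTU, a planar-polarity protein of cilia, was 0.56 times DMSO with MI-1061 and 0.879 times with NCS, and its interaction was 1.83 (adjusted p = 8.47e-05). Just inside the listing threshold by ratio of means were INPP5A, JARID2, RHOC and HELZ at 1.75 and LAMC1, a laminin chain, at 1.76. Genes just outside it are not analysed here.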

How the data were processed

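Poly(A) RNA of SJSA-1 cells was sequenced in 18 libraries, 3 in each of 6 groups. The deposited table holds normalized counts, a signal that the authors made by dividing read counts by a size factor per library, as the values themselves show. The genome build GRCh38 and the tools HISAT2 (version 2.0.5.2), DESeq2 (version 2.11.40.6) and featureCounts (version 1.6.3) appear, per the submitters' processing notes, with no role given, and whether counting used strand is not given in the sources used here. The inhibitor's digits differ between a protocol text and the titles, which were followed.

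Reads were recovered in DMSO, where all values below 2000 reads came out whole within 0.01 reads. In 5 columns, those with NCS and MI-1061 among them, the values are also multiples of a step, but the lowest value is several steps, so it was not taken as 1 read and no test on counts was run. Limma 3.58.1 (R 4.3.3) was fitted to log2(value + 1) with a trended variance over all 6 groups, for 3073 genes with at least 10 in at least 3 libraries. P-values were adjusted by Benjamini-Hochberg over all genes of each comparison, at a threshold of 0.05. In all, 4 comparisons were tested, and the one with DMSO was only described. Group overlap was read from the library values.

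Names were matched to RefSeq (2795 by symbol, 203 by synonym, 76 not matched), and 2781 are current symbols. The members, lists and rules were chosen with earlier results of these data known. The text names genes by this rule: MDM2 and CDKN1A, the 25 largest and 5 smallest estimates and the 15 largest added counts, up to 4 members of each list, and the 6 highest and 6 lowest interactions and differences from NCS with MD-224, with means of at least 50. Further names were chosen after their values were seen, and a few items under the rule are not reported here.

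Same-numbered libraries of NCS with MI-1061 deviated together with those of NCS alone (correlations of 0.346, 0.399 and 0.215) and of NCS with MD-224 (0.309, 0.428 and 0.198), so the numbers pair these groups. Alternatives were other pseudocounts (0.5 and 5), filters, scaling by TMM (edgeR 4.0.16), variance models and fits of fewer groups, a replicate block and left-out libraries. The limma fit was tried on simulated libraries with known changes and no replicate effect, though not for the comparison with NCS alone. Unlike in these data, only a small part of the genes was changed there, all upward and from a mean common to all groups. Of 2-fold changes in that setting the fit recovered 58.2% against MI-1061 alone, 55.2% against NCS with MD-224 and 31.3% as interactions. Genes not called can therefore still differ. Only counting error is covered by the read numbers given.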

Additional observations from a re-analysis of the deposited data

Results flagged for a closer look

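Results in which the effect of MI-1061 differed with and without NCS, by the test of the difference itself (limma interaction term, adjusted over 3073 genes), were 721 genes with a positive and 639 with a negative value. Among the genes named, log2 interactions were positive for SFN (4.87), DERA (4.41), NEMP2 (4.37), TMEM40 (4.24), DRAXIN (3.95) and KCTD12 (3.75). They were negative for KRT78 (-5.22), TTN (-4.96), KRT4 (-4.94), LGR6 (-4.85), DNAH12 (-4.46) and CUBN (-4.38).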

How the results depend on the processing

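The listing, the scaling and the number of libraries limit the results. The median log2 difference from DMSO (1.60) was 1.49 with a pseudocount of 5, 1.52 for genes with a mean of at least 50 and 0.02 with TMM, which takes most genes as unchanged. With TMM the genes at least 4-fold and 32-fold higher were 282 and 20, against 1079 and 91. TMM gave 930 higher and 729 lower genes against MI-1061 alone, 733 and 593 against NCS alone, and 549 and 357 against NCS with MD-224, and 1508 genes and 41 of the 139 named ones fell below 0 against DMSO. Fitting the compared groups alone, 36 genes were lower than with NCS alone, against 23. Leaving out libraries gave medians of 1.57 to 1.62, 1347 to 1711 higher and 171 to 314 lower genes against MI-1061 alone, 1738 to 2033 and 10 to 21 against NCS alone, 1074 to 1610 and 6 to 20 against NCS with MD-224, and 365 to 741 positive and 284 to 665 negative interactions. The lowest counts came without replicate 3 of every group. Single libraries moved the 23 genes lower than with NCS alone to 14 (without NCS with MI-1061 replicate 2), 15 (without NCS with MI-1061 replicate 3) and 15 (without NCS replicate 2), and the 23 lower than with NCS and MD-224 to 15 (without NCS with MI-1061 replicate 1) and 10 (without NCS with MD-224 replicate 3). These counts rest on few genes. The cause of these shifts was not tested, beyond the fewer libraries themselves.

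With the replicate block 1832 genes were higher and 343 lower than with MI-1061 alone, 2281 and 32 than with NCS alone and 1883 and 34 than with NCS and MD-224, and interactions were positive in 870 and negative in 757, so no count moved by over 1.5 times. Against DMSO the same-number correlations were 0.205, 0.237 and 0.0826, and the highest with another number was 0.00109. Against MI-1061 alone they were 0.166, 0.357 and 0.0197, and replicate 3 of NCS with MI-1061 reached 0.168 with another number. Libraries of the same number thus partly deviated together in these groups too, and the main fit had no replicate term. Of 1991 alternative values of the named genes' tested differences, 1918 kept direction and call, 73 kept direction and lost the call and 0 reversed. Of 2362 alternative values against DMSO, 139 moved by more than the spread between libraries, and so did 34 of 408 list medians.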
